A study of Homo sapiens with 2 samples.

Results

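Mitochondrial ribosomal proteins, which build the ribosomes inside mitochondria, are described here as the genes whose symbol is MRPL or MRPS followed by a number, in protein-coding form, with at least 1 probe set that the platform annotation gives to no other gene. They came to 75 of 17689 measured genes, 48 of the large and 27 of the small subunit, read by 137 probe sets. RefSeq lists 77 protein-coding genes under such symbols, and the other 2, MRPL53 and MRPS24, were covered only by probe sets that name several genes. Pseudogenes and the antisense gene MRPL20-AS1 were left out.

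Mitochondrial ribosomes make the few proteins that the mitochondrial genome encodes, all of them subunits of the respiratory chain or ATP synthase. Their ribosomal RNA is encoded in the mitochondrion, but their proteins come from nuclear genes and are imported from the cytosol. The large subunit, with genes named MRPL, joins amino acids and releases the growing chain at the inner membrane. The small subunit, with genes named MRPS, binds the messenger RNA and reads its codons. Some of these proteins have bacterial counterparts, and others are found in mitochondria alone.

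RNA came from the LNCaP line of human prostate carcinoma, which responds to androgen, and was profiled on Affymetrix Human Genome U133 Plus 2.0 arrays. The knockdown culture had received lentivirus with a short hairpin RNA against KDM4A, a histone H3 lysine demethylase, and the control culture lentivirus from pLKO.1 without a hairpin. Both were harvested 3 days after infection. With 1 array in each group no test is possible, so all statements below describe these 2 arrays, and the number of arrays limits their precision.

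The deposited values are on the log2 scale and centred, so that the values of the 2 arrays mirror each other around 0 in every row. Each difference below is the knockdown value minus the control value, averaged over the probe sets of a gene, and ± SD is the spread over those probe sets, not over cultures. Levels, and therefore detection of the prostate markers of LNCaP, cannot be read from centred values. KDM4A read -0.45 and -0.73 in the knockdown against 0.45 and 0.73 in the control on its 2 probe sets, a difference of -1.18 ± 0.40 (SD, n = 2 probe sets), which is 2.26-fold lower. Of the 7 measured luminal prostate markers 6 (85.7%) lay above 0 (median 0.11), against 53.7% of all genes. The other, TMPRSS2, lay furthest from 0 at -0.76 ± 0.16 (SD, n = 4 probe sets). The 4 measured markers of the HEK293T packaging cells had a median of 0.035 with 2 on each side of 0. The 4 fibroblast markers lay above 0 (median 0.35). Of these, DCN (0.044 ± 0.21, SD, n = 4 probe sets) and COL1A2 (0.060 ± 0.042, SD, n = 2 probe sets) lay near it. COL1A1 (0.73 ± 0.76, SD, n = 4 probe sets) and COL3A1 (0.63 ± 0.68, SD, n = 3 probe sets) varied widely with the probe set. The part of other cells in the mitoribosomal values was not tested.

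As a family, the mitoribosomal genes kept close to the centre of the array. Their median difference was 0.054, against 0.020 for all genes, and their interquartile range was 0.28, against 0.33. In the knockdown 46 of 75 members lay above 0 and 29 below, against 53.7% and 46.3% of all genes. A difference of at least 0.32 on the log2 scale is called the small bound here. Past it on the low side lay 6 members, which is 8% of 75 against 11.1% of all genes. Past it on the high side lay 8, or 10.7% of 75 against 13.2% of all genes. Both shares are near those of the whole array. At 1.5-fold, 3 members were lower and 1 higher (4.38% and 4.3% of all genes), and at 2-fold 1 was lower and none higher (1.44% and 1.16% of all genes).

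**Figure D1:**
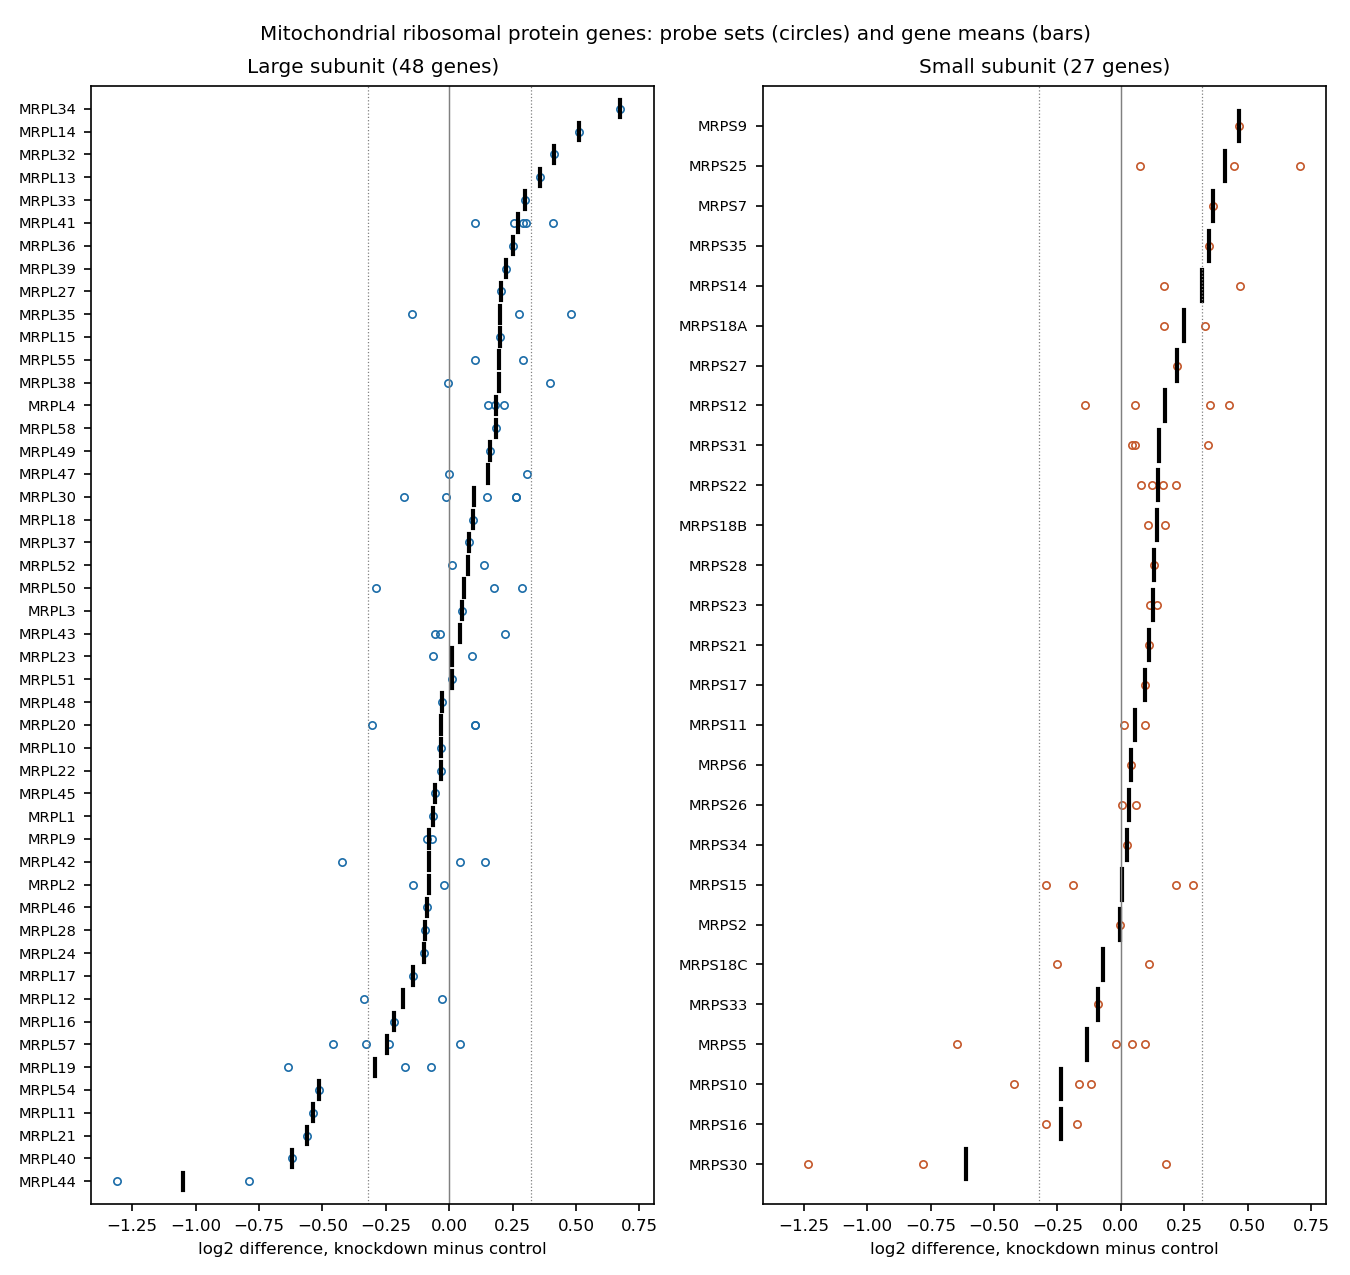
Log2 difference, knockdown minus control, of each mitoribosomal gene, ordered by its mean, for the large (left) and the small subunit (right); circles are single probe sets, black bars gene means and dotted lines the small bound of 0.32. Most means lie between the dotted lines, while MRPL44 lies at -1.05 with both probe sets below -0.7.

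MRPL44 was the member with the largest difference and the only one past 2-fold. This protein of the large subunit has a ribonuclease III-like fold and sits near the exit of the peptide tunnel. Its probe sets read -0.40 and -0.66 in the knockdown against 0.40 and 0.66 in the control. The difference was therefore -1.05 ± 0.37 (SD, n = 2 probe sets), 2.07-fold lower, and 1.26% of all genes lay lower. One of its probe sets is of the class ending in _x_at and the other of the class ending in _s_at, both of which can match several transcripts, so MRPL44 has no value once these classes are set aside.

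The other large-subunit genes at the low end rest on 1 probe set each. MRPL40, a protein of the central protuberance, read -0.31 in the knockdown against 0.31 in the control, a 1.54-fold lower value (-0.62). MRPL21, the counterpart of bacterial L21, read -0.28 against 0.28 (-0.56). MRPL11, which forms the base of the stalk that engages translation factors, read -0.27 against 0.27 (-0.54), on a probe set ending in _s_at. MRPL54, a mitochondria-only protein, read -0.26 against 0.26 (-0.51). These 4 genes and MRPL44 were the large-subunit members past the small bound on the low side, and next above them stood MRPL19, a counterpart of bacterial L19, at -0.29 ± 0.30 (SD, n = 3 probe sets) with every probe set below 0.

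MRPS30 was the only gene with an MRPS symbol past the small bound on the low side, and its probe sets did not keep to one side. In spite of its name, MRPS30 occupies the large subunit in structures of the human mitoribosome, and it has been linked to cell death as PDCD9. The knockdown values were 0.089, -0.62 and -0.39 on its 3 probe sets, against -0.089, 0.62 and 0.39 in the control. Their mean difference was -0.61 ± 0.72 (SD, n = 3 probe sets), and the range of 1.41 over probe sets was the widest of all members. The next widest was MRPS5 (0.74 over 4 probe sets), where 1 probe set read a difference of -0.65 and the others lay between -0.019 and 0.094. MRPL35 (0.63 over 3 probe sets) and MRPL50 (0.58 over 3) also had probe sets on both sides of 0, so the direction for these genes differed with the probe set read.

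At the high end stood MRPL34, the counterpart of bacterial L34 and the only member at least 1.5-fold higher. It read 0.34 in the knockdown against -0.34 in the control, a difference of 0.67 (1.60-fold) on 1 probe set. MRPL14, the large-subunit protein to which the assembly factor MALSU1 binds, followed at 0.51. MRPL32, which is cleaved by the m-AAA protease before it joins the ribosome, lay at 0.42, and MRPL13 at 0.36, each on 1 probe set. The probe sets of MRPL34, MRPL14, MRPL32 and MRPL13 all end in _s_at, a class that can match several transcripts. Like MRPL44, these genes have no value once that class is set aside.

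Among small-subunit genes the highest were MRPS9, a counterpart of bacterial S9, at 0.46 (1 probe set) and MRPS25, a mitochondria-only protein. On its 3 probe sets MRPS25 read 0.35, 0.038 and 0.22 in the knockdown against -0.35, -0.038 and -0.22 in the control, a difference of 0.41 ± 0.32 (SD, n = 3 probe sets). All 3 end in _s_at, a class that can match several transcripts. MRPS7, which binds the head of the small-subunit RNA, lay at 0.36 and MRPS35 at 0.35 on 1 probe set each. These 4 were the small-subunit members past the small bound on the high side, and MRPS14 (0.32 ± 0.21, SD, n = 2 probe sets) fell just short of it before rounding. At the other end, MRPS16 lay at -0.23 ± 0.088 (SD, n = 2 probe sets) and MRPS10 at -0.23 ± 0.16 (SD, n = 3 probe sets), all of their probe sets below 0.

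Set against each other, the large subunit had the lower median. The large-subunit median was 0.028 and the small-subunit median 0.11, a difference of -0.082, for which 1 array per group allows no test. Above 0 lay 26 of 48 large-subunit genes (54.2%) and 20 of 27 small-subunit genes (74.1%), against 53.7% of all genes. Past the small bound on the low side lay 5 large-subunit genes (10.4%) and 1 small-subunit gene (3.7%), against 11.1% of all genes. On the high side lay 4 of each (8.33% of the large and 14.8% of the small subunit), against 13.2% of all genes. Without the probe sets ending in _x_at or _s_at the large-subunit median turned to -0.026 over 27 genes and the small-subunit median was 0.14 over 16, which widened the gap to -0.17. That setting drops MRPL34, MRPL14, MRPL32 and MRPL13 at the high end, and MRPL44 and MRPL11 at the low end. The gap narrowed to -0.048 with the median over each gene's probe sets and to -0.049 over genes with 2 or more probe sets. It was -0.060 with probe sets naming several genes added, and -0.067 without MRPL44. Placing the members by structure moves MRPS30 and MRPS18A to the large subunit. Past the small bound on the low side then lay 6 of 50 large-subunit genes (12%) and none of 25 small-subunit genes. The medians were again 0.028 and 0.11. The 4 measured mitoribosomal proteins under other symbols are not placed here. Of these, only CHCHD1, a small-subunit protein, lay past that bound (-0.75, 1 probe set).

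Grouped by evolutionary origin, the members had medians close to each other. The 45 members with a bacterial counterpart had a median of 0.049 and the 30 mitochondria-only members one of 0.066. Of the 6 members past the small bound on the low side, 4 were mitochondria-only proteins of the large subunit by structure (MRPL44, MRPL40, MRPS30 and MRPL54). That is 20% of 20 such genes, against 6.67% of the 30 large-subunit genes by structure with a bacterial counterpart, on counts of 4 and 2 genes. Of all genes 11.1% lay past it. The 10 mitochondria-only genes of the small subunit had 9 (90%) above 0, against 53.7% of all genes, and a median of 0.14. This share depends on the symbol rule, since mitoribosomal proteins under other symbols are outside the count. The 4 measured ones, of either subunit, had 2 on each side of 0. The small-subunit protein CHCHD1 (-0.75) and PTCD3 (-0.095) lay below it, and DAP3 (0.044) and GADD45GIP1 (0.12) above.

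By functional site, the 3 proteins of the stalk lay below 0, as did 46.3% of all genes. MRPL12, the stalk protein that contacts translation factors, lay at -0.18 ± 0.22 (SD, n = 2 probe sets) and MRPL10, which anchors it, at -0.034, besides MRPL11. Around the peptide exit, 5 of 8 genes lay below 0 with a median of -0.046. Apart from MRPL44 they ranged from -0.14 for MRPL17 to 0.22 for MRPL39, and MRPL45, which tethers the ribosome to the inner membrane, lay at -0.057. MRPS12, of the decoding centre, lay at 0.17 ± 0.26 (SD, n = 4 probe sets). MRPL58, a peptidyl-tRNA hydrolase that became a ribosomal protein, lay at 0.18.

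The 3 MRPS18 paralogs are relatives of bacterial S18, although only MRPS18C is counted above as its direct counterpart. MRPS18A lay at 0.25 ± 0.11, MRPS18B at 0.14 ± 0.047 and MRPS18C at -0.071 ± 0.26 (SD, n = 2 probe sets each), and only MRPS18C had probe sets on both sides of 0. MRPL41, which has been linked to apoptosis through BCL2, lay at 0.27 ± 0.11 (SD, n = 5 probe sets), with every probe set above 0. Each of the 5 ends in _x_at or _s_at, classes that can match several transcripts.

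Other members stood near 0 with probe sets that kept together. On its 4 probe sets MRPS22, a mitochondria-only protein, read 0.040, 0.11, 0.083 and 0.061 in the knockdown against -0.040, -0.11, -0.083 and -0.061 in the control, a difference of 0.15 ± 0.058 (SD, n = 4 probe sets). MRPL4, a counterpart of bacterial L4, lay at 0.18 ± 0.032 (SD, n = 3 probe sets), MRPS23 at 0.13 ± 0.019 and MRPL9 at -0.079 ± 0.015 (SD, n = 2 probe sets each). The 4 probe sets of MRPS22 end in _x_at and the 2 of MRPL9 in _s_at, classes that can match several transcripts. In MRPS22, MRPL4, MRPS23 and MRPL9 the spread over probe sets was smaller than the difference. By contrast MRPS15, a counterpart of bacterial S15, averaged 0.0048 from probe sets between -0.29 and 0.28 (SD 0.29, n = 4 probe sets), and MRPL30 averaged 0.097 from probe sets between -0.18 and 0.26 (SD 0.19, n = 5 probe sets).

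Probe sets give the one internal check that these arrays offer. Among the 35 members read more than once, 20 kept every probe set on the same side of 0, which is 57.1% against 50.3% of the 8944 genes read more than once. They were all above 0 for 13 members and all below for 7, while 15 were split. The other 40 members have 1 probe set, among them 11 of the 14 members past the small bound, so most of the larger differences could not be checked in this way. MRPL34 overlaps ABHD8, MRPL14 overlaps TMEM63B and MRPS9 overlaps antisense genes in RefSeq, and the part of these neighbours in the values was not tested. RefSeq names at least 1 pseudogene for 39 members, and the medians were 0.054 with such copies and 0.058 without.

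Other lists of the mitochondrial translation apparatus had medians on both sides of 0. Of the 4 measured mitoribosomal proteins under other symbols, CHCHD1, a small-subunit protein, lay at -0.75 on 1 probe set, and PTCD3 (-0.095 ± 0.25, SD, n = 4 probe sets), DAP3 (0.044 ± 0.27, SD, n = 3 probe sets) and GADD45GIP1 (0.12 ± 0.52, SD, n = 3 probe sets) near 0. The 24 assembly factors had a median of 0.039, with 13 above 0. MALSU1, the partner of MRPL14, was the only one past the small bound on the low side (-0.46 ± 0.20, SD, n = 4 probe sets), and MPV17L2 (0.41) and MRM3, which methylates the large ribosomal RNA (0.39), lay past it on the high side. The 16 translation factors had a median of 0.14, with 5 (31.25%) past the small bound on the high side, against 13.2% of all genes, and 2 (12.5%) on the low side, against 11.1%. Of the 5, OXA1L only just passed the bound (0.3221 on 1 probe set, against 0.3219 before rounding). Over the factors with 2 or more probe sets the median was 0.024. MTFMT, which formylates the initiator methionyl-tRNA, lay at 0.47, the initiation factor MTIF3 at 0.44 and the elongation factor GFM1 at 0.38 ± 0.095 (SD, n = 4 probe sets), against -0.34 for SLIRP, which stabilises mitochondrial messenger RNAs.

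Mitochondrial aminoacyl-tRNA synthetases and amidotransferase subunits had a median of -0.26, and 8 of 20 (40%) lay past the small bound on the low side, against 11.1% of all genes and 8% of mitoribosomal genes. GARS1, the glycyl enzyme of both cytosol and mitochondria, was 3.93-fold lower (-1.97), the prolyl enzyme PARS2 1.95-fold lower (-0.96), and the methionyl enzyme MARS2 2.28-fold higher (1.19), each on 1 probe set. The median was -0.054 over the 11 genes with 2 or more probe sets, so the distance from 0 was mostly in genes read once. Without GARS1 and KARS1, which serve both compartments, it was -0.17 over 18 genes.

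Genes of mitochondrial RNA synthesis and of biogenesis control lay on both sides of 0. The 16 genes of mitochondrial RNA synthesis and processing had a median of -0.062, from SSBP1 (-0.40 ± 0.96, SD, n = 3 probe sets) to TRMT10C (0.48). Regulators of mitochondrial biogenesis had a median of -0.0022 over 10 genes. Among them the transcription factor NRF1 lay at -0.63 ± 0.33 (SD, n = 4 probe sets), the coactivator PPRC1 at -0.50 and the lysosomal regulator TFEB at 0.59 ± 0.59 (SD, n = 2 probe sets), while GABPA (-0.065 ± 0.0021, SD, n = 2 probe sets) and YY1 (0.060 ± 0.42, SD, n = 6 probe sets) stayed near 0.

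The spread over mitoribosomal genes was wider than over 2 other large gene lists taken by symbol, a difference that was not tested. The SD over genes was 0.28 for the 75 mitoribosomal genes. It was 0.19 for the 75 measured of 83 listed respiratory chain and ATP synthase genes. For the 53 measured of 78 listed cytosolic ribosomal proteins it was 0.15, and over all genes 0.38. The medians of the respiratory and cytosolic ribosomal lists were 0.0095 and -0.043, and 5 respiratory genes (6.67%) and 1 cytosolic ribosomal gene (1.89%) lay past the small bound on the low side, against 11.1% of all genes. On the high side lay 3 respiratory genes (4%) and no cytosolic ribosomal gene, against 13.2%. NDUFS1, of complex I, lay at -0.61 ± 0.56 (SD, n = 4 probe sets) and RPS28 at -0.56 ± 0.29 (SD, n = 3 probe sets).

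**Figure D2:**
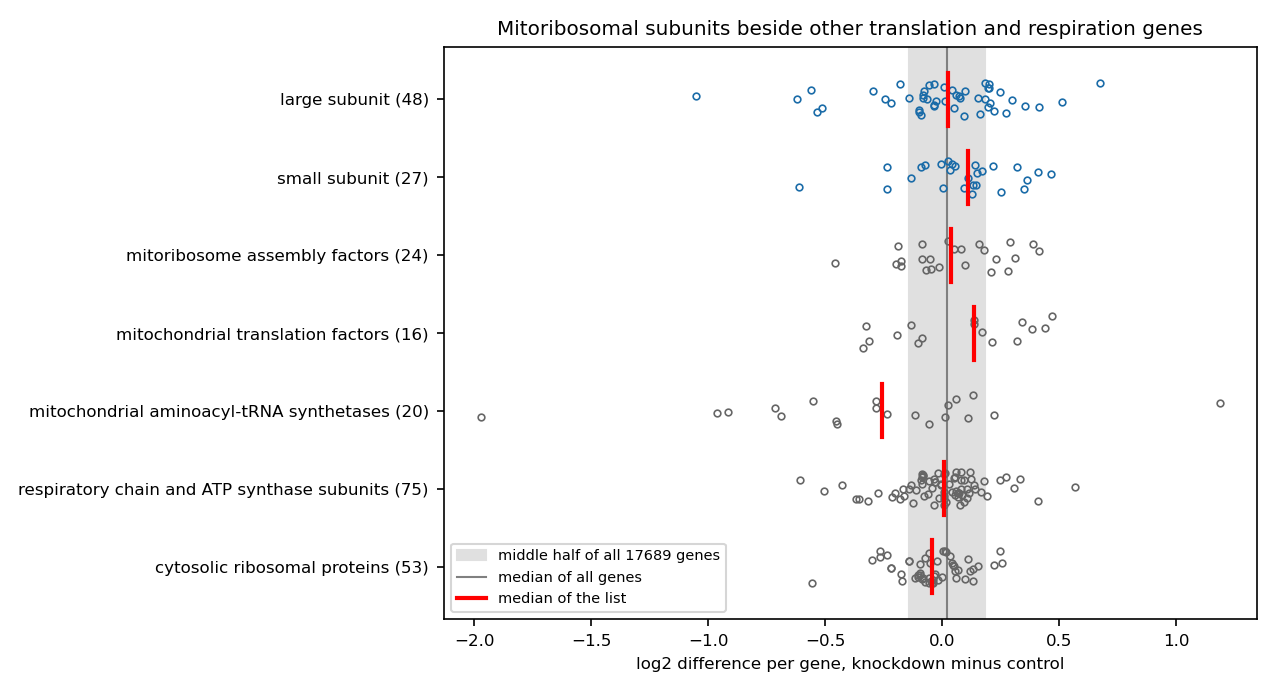
Log2 difference per gene, knockdown minus control, for the 2 mitoribosomal subunits (blue) and 5 other gene lists (grey), with the number of genes in brackets; red bars are list medians, the shaded band is the interquartile range of all 17689 genes and the grey line their median. The aminoacyl-tRNA synthetases (median -0.26) are the only list shown whose median lies outside the band.

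Many mitoribosomal genes share promoter features that the choice of members did not use. RefSeq promoter windows on GRCh38.p14, of 300 bases from 250 before to 50 after the annotated start, were held for 67 members with 83 starts. The letters CCGGAAG, bound by ETS factors such as GABPA, occurred on either strand in 38.6% of these windows, against 12.8% of 22199 windows of protein-coding genes and 10.3% of all 35116. The letters AAGATGGCG, bound by YY1, occurred in 14.5%, against 2.41% and 1.75%. No motif searched contains another of those searched. These matches are descriptions of sequence, not of binding.

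The ETS letters stood close to the start, with 22 of 38 matches beginning within the 50 bases before it. Where such matches lie in the windows of other genes was not counted. The sites below are 30 bases each, 5′ to 3′ on the strand of the gene, with the match or its reverse complement in capitals, and are shown because they include the lowest and the highest of the 29 members with an ETS match, MRPL40 at -0.62 and MRPL33, a counterpart of bacterial L33, at 0.30.
MRPL40 (chr22:19432523-19432552, plus strand): ggggcgcacgcCCGGAAGcggcgagggtag
MRPL54 (chr19:3762650-3762679, plus strand): gccactgacgtCTTCCGGaaacgtgcactt
MRPS12 (chr19:38930928-38930957, plus strand): acggatagcgcCCGGAAGaggctagaagct
MRPL58 (chr17:75012651-75012680, plus strand): ggaagcgcccgCCGGAAGcagtcgcaagac
MRPS18A (chr6:43687804-43687833, minus strand): ggcgctacgttCCGGAAGcggaaatggacg
MRPL33 (chr2:27771700-27771729, plus strand): cgggccgtgccCCGGAAGcagttgttgttg

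The letters of YY1 mostly followed the start, with 9 of 13 matches beginning at it or after it. Their position in the windows of other genes was not counted either. The sites below are 6 of the 13, chosen among those after the start in genes with differences between -0.61 and 0.25.
MRPS30 (chr5:44808950-44808979, plus strand): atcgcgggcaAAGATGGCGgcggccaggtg
MRPS10 (chr6:42217833-42217862, minus strand): cgggaccggcAAGATGGCGgcgcggacagc
MRPL46 (chr15:88467361-88467390, minus strand): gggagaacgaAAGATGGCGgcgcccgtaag
MRPL50 (chr9:101398576-101398605, minus strand): gatctcatcgAAGATGGCGgcgcgatctgt
MRPS18B (chr6:30617853-30617882, plus strand): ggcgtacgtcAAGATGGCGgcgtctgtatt
MRPS18A (chr6:43687763-43687792, minus strand): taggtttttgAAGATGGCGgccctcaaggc

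For the ETS and YY1 letters, members with and without a match had similar median differences between the arrays. The 29 members with an ETS match had a median of 0.049, from -0.62 to 0.30, and the 38 without one a median of 0.056. The 12 members with a YY1 match had a median of 0.066, against 0.049 for the 55 without. The 23 members with a CCAAT match had a median of 0.11, against 0.016 for the 44 without, and the 9 with an E-box one of -0.0026, against 0.056 for the 58 without. The 40 members with a GC box had a median of 0.075, against 0.049 for the 27 without. ETS matches were found in 17 of 41 large-subunit and 12 of 26 small-subunit genes, and YY1 matches in 8 and 4. The strict NRF1 palindrome occurred in 1.2% of member windows and 1.5% of protein-coding windows, the E-box CACGTG in 10.8% and 8.34%, the CRE letters TGACGTCA in 1.20% and 2.26%, CCAAT in 33.7% and 34.7%, and the GC box GGGCGG in 59.0% and 56.3%.

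**Figure D3:**
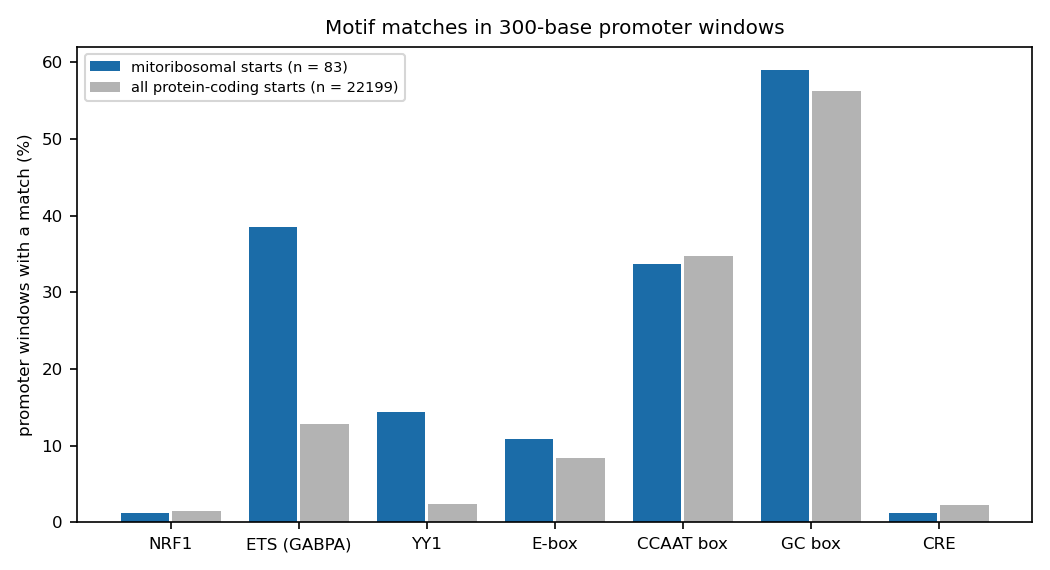
Percent of 300-base promoter windows with a match on either strand to each of 7 motifs, for 83 mitoribosomal starts (blue) and 22199 starts of protein-coding genes (grey). The ETS and YY1 bars are the ones in which the mitoribosomal share stands well above the other, at 38.6% against 12.8% and 14.5% against 2.41%.

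The member with the lowest value and the highest-lying member with a single annotated start are shown as sequences that hold neither motif although they lie at opposite ends of the family. Each sequence is the 250 bases before the start, 5′ to 3′ on the plus strand of GRCh38.p14, with matches to the GC box and CCAAT letters, on either strand, in capitals. MRPL44 holds 4 GC boxes and 1 CCAAT match, and MRPS9 1 of each.
MRPL44 (chr2:223957213-223957462): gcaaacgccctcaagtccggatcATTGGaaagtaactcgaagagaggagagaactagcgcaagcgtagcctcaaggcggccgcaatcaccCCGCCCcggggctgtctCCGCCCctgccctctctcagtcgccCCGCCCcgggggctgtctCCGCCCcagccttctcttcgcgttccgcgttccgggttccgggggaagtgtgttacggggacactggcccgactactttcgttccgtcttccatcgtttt
MRPS9 (chr2:105037819-105038068): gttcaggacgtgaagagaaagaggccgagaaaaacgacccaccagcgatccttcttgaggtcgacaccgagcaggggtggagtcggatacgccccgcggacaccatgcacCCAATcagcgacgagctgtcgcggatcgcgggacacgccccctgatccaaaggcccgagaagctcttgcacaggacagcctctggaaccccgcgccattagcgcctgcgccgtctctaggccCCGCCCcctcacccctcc

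Many mitoribosomal genes also start back to back with a neighbour. An annotated start on the opposite strand, pointing away within 1000 bases, was found for 25 of 67 members (37.3%), against 22.1% of protein-coding genes. The neighbour was measured for 19 of them, in 18 pairs, since MRPL46 and MRPS11 are neighbours of each other. In 7 of the 18 pairs (38.9%) both genes lay on the same side of 0, against 55.4% of all 1109 measured divergent pairs. Some of these sides rest on values close to 0. Examples are MRPS2 (-0.0026) and MRPL51 (0.0091) in opposite pairs and PSMA2, beside MRPL32, (0.026) in a same-side pair. The contrast between the shares was not tested.

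Several neighbours lay further from 0 than the mitoribosomal gene itself. NCAPD2, a condensin subunit, lay at -0.79 beside MRPL51 at 0.0091, and the phosphatase regulator PPP1R10 at -0.78 ± 0.68 (SD, n = 2 probe sets) beside MRPS18B. PTCD2, a mitochondrial RNA-binding protein, lay at -0.73 ± 0.67 (SD, n = 2 probe sets) beside MRPS27 at 0.22. SARS2, the mitochondrial seryl-tRNA synthetase, lay at -0.45 beside MRPS12, and SKA3, a spindle and kinetochore protein, at -0.45 beside MRPL57 (-0.25 ± 0.21, SD, n = 4 probe sets). MRPL40 had HIRA, a histone chaperone, as its neighbour 812 bases away, and HIRA lay at 0.25 ± 0.35 (SD, n = 2 probe sets). In the pair of mitoribosomal genes, MRPL46 lay at -0.089 and MRPS11 at 0.054 ± 0.057 (SD, n = 2 probe sets).

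**Figure D4:**
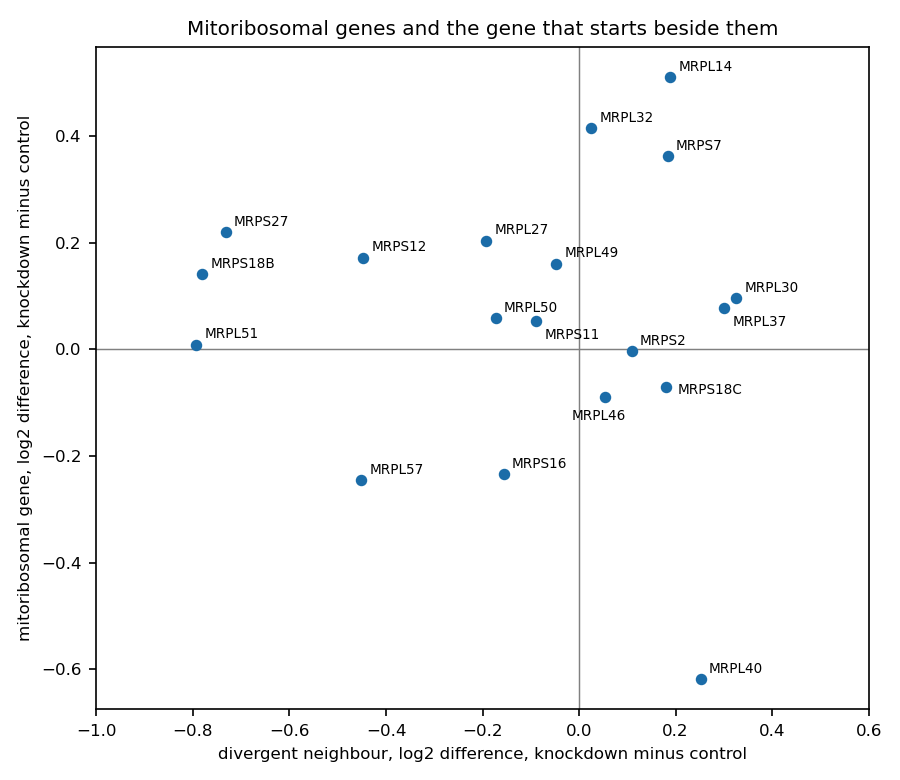
Log2 difference, knockdown minus control, of 19 mitoribosomal genes (vertical axis) against that of the gene that starts back to back with each (horizontal axis). Points spread over all 4 quadrants, and the 3 neighbours below -0.7 stand beside mitoribosomal genes between 0 and 0.22.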

How the data were processed

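One array per group was compared, KDM4A knockdown and control, from LNCaP cells harvested 3 days after infection. The authors deposited log2-scale values for 44672 probe sets, made with RMA per the submitters' processing notes; its version, any filter and the centring are not stated there. Base 2 is assumed, as RMA output is on that scale. In each row the values of the arrays sum to 0 within 1e-06, so signal and detection are lost, depth does not apply, and dim probe sets could not be removed.

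The platform annotation gave 1 gene to 34880 probe sets, several to 1619 and none to 8131; the 42 AFFX controls were kept apart. All 137 mitoribosomal probe sets matched RefSeq genes by Entrez identifier, with no symbol altered. A gene's difference is the mean over its probe sets. Sizes of 0.32 on the log2 scale, 1.5-fold and 2-fold were used as bounds, which is not a test. The calculation was tested on simulated data, with planted shifts larger than most differences reported here and less noise over probe sets than in these arrays. How it handles small differences was therefore not tested. Members, lists and motifs were chosen with earlier results of these data known. Named were the 8 highest and 8 lowest members, those at least 1.5-fold apart, the 5 with the widest range over probe sets, a set named in advance for their roles, and up to 3 genes per other list; neighbours and a few further genes were named after their values were seen. Cytosolic ribosomal and respiratory genes were taken by symbol.

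Promoter windows came from RefSeq on GRCh38.p14; a build for the array values is not given in the sources used. Python 3.11.15, numpy 2.4.6, pandas 2.3.3 and matplotlib 3.10.9 were used.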

Additional observations from a re-analysis of the deposited data

How the results depend on the processing

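Across 12 other settings, 77 of 99 values stayed within their tolerance (the SE over genes for a median, 1.5 times for a count). Some of the 77 could not move, so the tally is not a measure of stability. Among them are the subunit gap after the overall median was subtracted and the KDM4A difference as a median over its 2 probe sets. Counts were compared as raw numbers, although the number of genes or probe sets counted differed between settings. A count could therefore leave its tolerance at a like share. Among members with 2 or more probe sets 37.1% lay below 0, against 38.7% of all 75. Without probe sets ending in _x_at or _s_at the large-subunit median turned to -0.026 and its gap to the small subunit -0.17; 19 of 43 members lay below 0 and 4 past the small bound of 0.32 on the high side; medians were -0.016 for members with a bacterial counterpart, -0.013 for assembly factors, 0.060 for RNA synthesis, 0.14 for biogenesis regulators and 0.055 for respiratory genes. Among genes with 2 or more probe sets, 13 of 35 members lay below 0, 2 lay past the small bound on the low and 1 on the high side; medians were 0.0048 for members with a bacterial counterpart, 0.024 for translation factors and -0.054 for aminoacyl-tRNA synthetases. Apart from the number of genes counted, the cause was not tested. Subtracting the overall median gave -0.066 for cytosolic ribosomal and -0.013 for respiratory genes. Counting probe sets singly put 54 of 137 below 0, where the main count was 29 of 75 genes. The 1.5-fold rule left 3 lower and 1 higher member, and the 2-fold rule 1 and 0. Leaving out MRPL44, and leaving GARS1 and KARS1 out of the aminoacyl-tRNA synthetases, were chosen after seeing the data and moved no value past its tolerance. The brightest probe set of each gene could not be used, since levels were removed by centring. No paired analysis was possible because each group has 1 array.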

Other observations

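Some probe sets lie outside the comparisons above. The one shared by MRPL51 and SPTLC1 differed by 0.16, the one for MRPS24 and its read-through transcript by -0.15, and the one for MRPL53 and CCDC142 by 0.032, so none of them passed the small bound of 0.32. MRPL20-AS1, which overlaps MRPL20, lay at -0.020, beside -0.033 ± 0.23 for MRPL20 (SD, n = 3 probe sets). KGD4, formerly named MRPS36 and now assigned to the 2-oxoglutarate dehydrogenase complex, lay at 0.026. A probe set naming the pseudogene MRPS31P5 and THSD1 differed by 0.37.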
